A study of Homo sapiens with 24 samples.

Results

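The annexins examined here were 10 genes, ANXA1, ANXA2, ANXA3, ANXA4, ANXA5, ANXA6, ANXA7, ANXA10, ANXA11 and ANXA13, in HCT116 cells given inhibitors of DNA methyltransferase 1. A probe set was taken when the only gene symbol in the array's probe table was one of these, which gave 19 of 54675 probe sets. All 19 passed the filter on low values, and the 10 genes stood among 18055 genes tested. The family was chosen by the fall of ANXA10 against DMSO on these same arrays, so the levels and fold changes of ANXA10 are a description and carry no test. A further 3 probe sets listed an annexin beside another gene and were not used.

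HCT116 is an established human colorectal cancer line. Cells were exposed for 72 h to decitabine (DAC), azacytidine (Aza) or one of the prodrugs G669071, G668684 and G669043, all from DMSO stocks, or to DMSO alone. The titles add phos to G669071, ester to G668684 and Aza to G669043, and no structure was taken from these words. DAC and Aza are cytidine analogues that enter nucleic acids, trap DNA methyltransferases and so lower DNA methylation in dividing cells. The groups were DAC at 5 µM and 120 nM, G669071 at a higher and a lower dose, G668684 at 7 µM and 150 nM, Aza at 1500 and 150 nM, G669043 at 1500 and 150 nM, and DMSO. Titles put the doses of G669071 at 63 and 6 µM and source names at 120 and 6 nM, so what was given is not settled. Each treated group had 2 arrays and DMSO had 4, for 24 arrays in 11 groups. Whether replicates were separate cultures is not in the labels, so the p-values reflect the spread between arrays, which may be technical. All 7 epithelial markers examined had a mean log2 value over 8 (8.27 to 13.9), against 1 of 4 fibroblast, 2 of 3 blood and 2 of 6 neuronal markers that passed the filter. DMSO replicates 1 and 2 correlated at 0.997 over genes, as did replicates 3 and 4 (0.997), while across the pairs the values were 0.990 to 0.991. For some results that rest on DMSO, losses against 1 pair alone are therefore given. Calls without such a mention need not hold against both pairs.

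Annexins are cytosolic proteins that bind acidic phospholipids of membranes when calcium rises. They bring membranes together, help to reseal torn plasma membrane, organise membrane domains and carry S100 proteins as partners. In the gut, several members are abundant in epithelium, while ANXA10, whose calcium-binding sites have degenerated, belongs to gastric epithelium and is used by pathologists as a marker of serrated colorectal lesions.

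These drugs act on the methylation of CpG dinucleotides, so promoter windows of members were read from RefSeq promoters (build GRCh38.p14). A window ran from 250 bases before to 50 bases after the transcription start. Member windows on 1 chromosome were left out, though the comparison with all promoters kept that chromosome. The reading covered 13 windows of 9 members, and no window of ANXA13 was read. The CpG dinucleotide (the letters CG, which read the same on both strands) is in capitals below. ANXA10 (chr4:168092287-168092586, plus strand) and ANXA1 (chr9:73151615-73151914, plus strand) are shown because their windows hold 0 CpG. ANXA5 (chr4:121696931-121697230, minus strand) is shown as the member called higher in every group, and its window holds 36 CpG.
ANXA10: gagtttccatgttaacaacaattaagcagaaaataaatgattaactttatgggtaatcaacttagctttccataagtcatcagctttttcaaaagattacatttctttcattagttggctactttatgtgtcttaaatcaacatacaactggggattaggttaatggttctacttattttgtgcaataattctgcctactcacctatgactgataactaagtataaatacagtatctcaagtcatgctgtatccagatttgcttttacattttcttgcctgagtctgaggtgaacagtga
ANXA1: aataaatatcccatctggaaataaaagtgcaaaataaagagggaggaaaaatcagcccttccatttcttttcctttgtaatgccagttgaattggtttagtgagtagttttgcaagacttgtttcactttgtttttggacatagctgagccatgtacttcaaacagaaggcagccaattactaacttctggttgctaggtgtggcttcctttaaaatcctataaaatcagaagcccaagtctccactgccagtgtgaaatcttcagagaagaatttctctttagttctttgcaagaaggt
ANXA5: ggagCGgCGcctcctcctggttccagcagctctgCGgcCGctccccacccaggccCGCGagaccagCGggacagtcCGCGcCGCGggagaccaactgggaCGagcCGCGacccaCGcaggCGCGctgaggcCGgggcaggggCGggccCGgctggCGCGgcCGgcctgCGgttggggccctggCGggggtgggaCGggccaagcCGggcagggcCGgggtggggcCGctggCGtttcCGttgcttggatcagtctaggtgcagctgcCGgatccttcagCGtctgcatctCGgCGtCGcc
Of 35116 promoter windows of this length, 3.96% hold 0 CpG and the median window holds 14. The share with 36 or more, as in ANXA5, is 12.7%. The GC content of the window is 32.7% in ANXA10, 37.7% in ANXA1 and 76.3% in ANXA5. The windows of the remaining matched members hold 7 to 44 CpG, and each of these members has at least 1 window with 20 or more. The windows of ANXA4, called lower in 2 comparisons with DMSO and higher in 0, hold 44 and 27. The window of ANXA3, called lower in 3 and higher in 1, holds 25. The window of ANXA2, called higher in 6 and lower in 0, holds 32. Whether the CpG count goes with the direction of change was not tested. The counts describe these 300 bases only, and no methylation was measured here.

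ANXA10 had the widest range of the family, with group means spanning 2.05 on the log2 scale, against 0.07 to 0.73 for the other 9 members. On the 1 probe set for ANXA10 (210143_at), the log2 level was 8.46 and 8.55 with DAC at 5 µM and 7.81 and 7.76 with DAC at 120 nM, against 9.75, 9.79, 9.95 and 9.84 in DMSO. With G669071 it was 8.22 and 8.26 at the higher dose and 8.42 and 8.36 at the lower dose. With G668684 it was 8.44 and 8.32 at 7 µM and 7.97 and 8.03 at 150 nM. All of these arrays lay more than 1 log2 unit below every DMSO array. Under Aza the level was 8.46 and 8.36 at 1500 nM and 9.0 and 8.98 at 150 nM. Under G669043 it was 8.48 and 8.45 at 1500 nM and 9.61 and 9.63 at 150 nM. In 10 of 10 treated groups both arrays lay below all 4 DMSO arrays, a pattern held by 0.294% of the genes tested. In single comparisons 8.18% to 21.0% of genes lay wholly below DMSO. In bulk RNA, fewer cells with the transcript and less transcript per cell cannot be told apart.

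**Figure D1:**
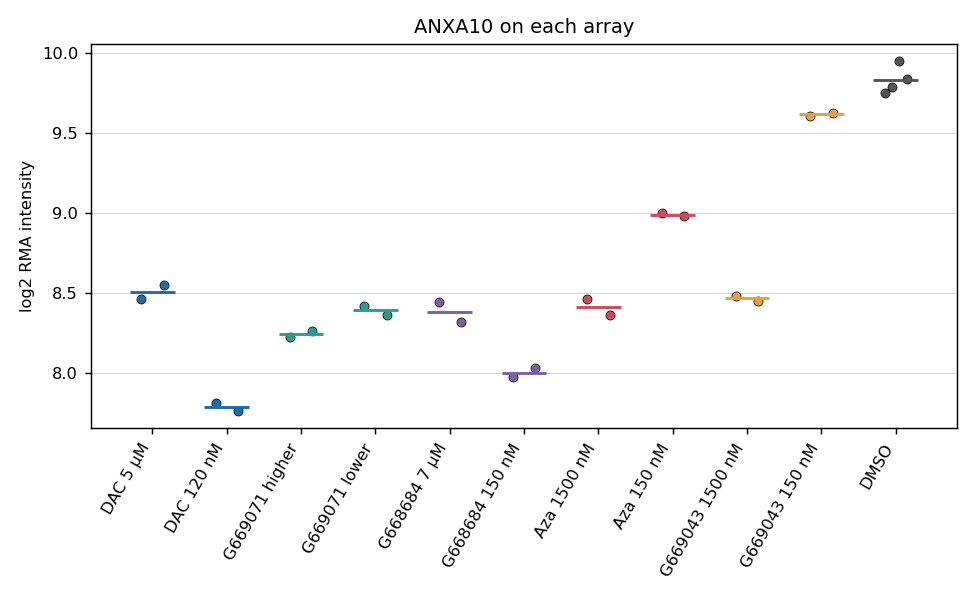
Log2 RMA intensity of ANXA10 (vertical axis) on each of the 24 arrays, with treated groups on the left and DMSO on the right; points are arrays and bars are group means. DAC at 120 nM is lowest at 7.76 and 7.81, G669043 at 150 nM (9.61 and 9.63) lies nearest to DMSO (9.75 to 9.95), and no treated array reaches a DMSO array.

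The log2 fold change of ANXA10 against DMSO was -2.05 ± 0.07 (SE, 2 arrays against 4) with DAC at 120 nM, a level 4.13 times lower. It was -1.83 ± 0.07 with G668684 at 150 nM and -1.59 ± 0.07 with the higher dose of G669071. The fold changes with G668684 at 7 µM (-1.45), the lower dose of G669071 (-1.44), Aza at 1500 nM (-1.42), G669043 at 1500 nM (-1.37) and DAC at 5 µM (-1.33) lay close together. These groups overlapped their neighbours in the order of levels, and all others in the order were separated from the next by a gap between their arrays. Aza at 150 nM followed at -0.84 ± 0.07 and G669043 at 150 nM at -0.21 ± 0.07. Against DMSO replicates 1 and 2 alone, the last was -0.15, and against replicates 3 and 4 alone -0.28. Ranked over all genes tested from the most negative log2 fold change, ANXA10 was number 1 with Aza at 150 nM and number 2 with DAC at 120 nM, the lower dose of G669071 and G669043 at 1500 nM. It was number 3 with G668684 at 150 nM, number 5 with the higher dose of G669071, number 15 with both G668684 at 7 µM and Aza at 1500 nM, number 24 with DAC at 5 µM and number 1693 with G669043 at 150 nM.

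The dose with the lower ANXA10 level was not the same for every compound. For DAC the higher minus the lower dose gave a log2 difference of 0.72 ± 0.08 (SE, 2 arrays each), so ANXA10 was higher at 5 µM than at 120 nM. For G668684 this difference was 0.38 ± 0.08, in the same direction, and for G669071 it was -0.15 ± 0.08. For Aza it was -0.58 ± 0.08 and for G669043 -1.15 ± 0.08, with the lower level at 1500 nM for both. Aza and G669043 had matched doses. G669043 minus Aza differed by 0.05 ± 0.08 on the log2 scale at 1500 nM (95% interval -0.11 to 0.22), where the arrays of the compounds overlapped. At 150 nM the difference was 0.63 ± 0.08, and both G669043 arrays lay above both Aza arrays.

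Genes whose 11 group means followed those of ANXA10 most closely were sought among 1141 genes with a span of at least 1 log2 unit. The highest Pearson correlations were those of SCAI (0.965), a suppressor of cell invasion, RPGRIP1L (0.956), of the ciliary transition zone, HS3ST1 (0.952), a heparan sulfate sulfotransferase, HOOK1 (0.951), a microtubule-linked adaptor, and SMIM3 (0.943). The most opposite were ZNF703 (-0.972), a transcriptional repressor, VIM (-0.967), the intermediate filament vimentin, and COL6A3 (-0.962), a collagen VI chain. The points share all arrays and the same DMSO group, so the correlations are a description over 11 points. HS3ST1 spanned 2.16 log2 units and was lowest with DAC at 120 nM, at -2.16 against DMSO, as ANXA10 was. VIM was 3.84 log2 units higher with DAC at 120 nM than in DMSO and 0.12 higher with G669043 at 150 nM. Within the family, the correlation with ANXA10 over the same means was -0.76 for ANXA5, -0.76 for ANXA2 and 0.62 for ANXA1.

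**Figure D2:**
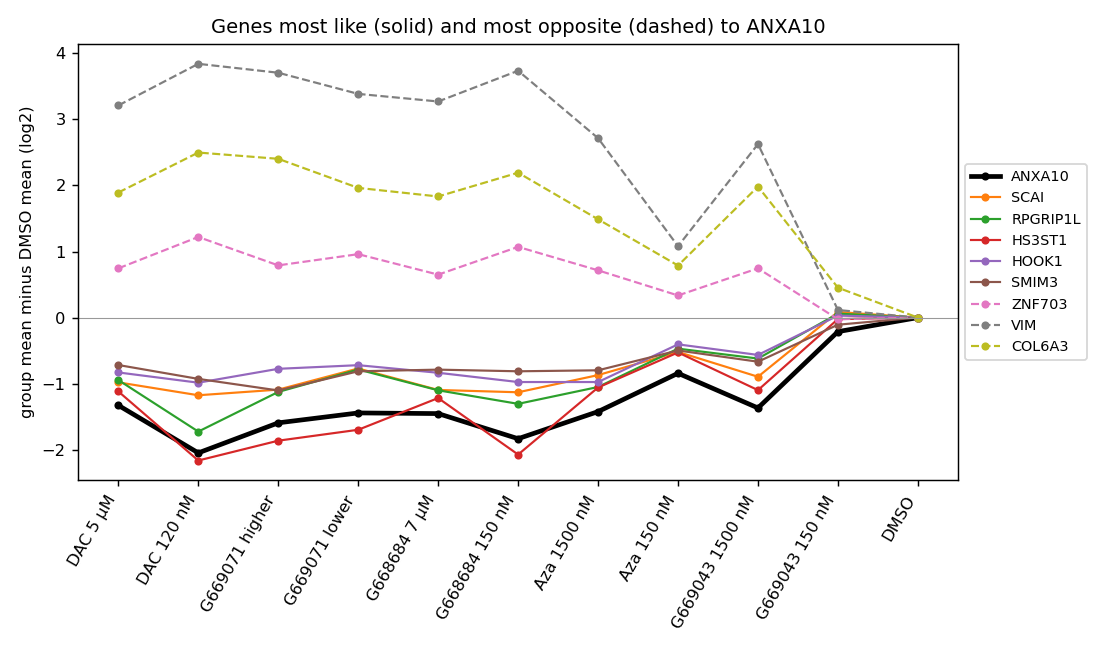
Group mean minus DMSO mean on the log2 scale (vertical axis) for ANXA10 (thick line), the 5 genes most like it (solid) and the 3 most opposite (dashed) over the 11 groups. SCAI, RPGRIP1L, HS3ST1, HOOK1 and SMIM3 lie below 0 wherever ANXA10 is well below DMSO, and VIM reaches 3.84 with DAC at 120 nM where ANXA10 is at -2.05.

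The other 9 annexins moved far less, and in both directions. Over the 10 comparisons with DMSO, 29 of 90 pairs of a gene and a comparison passed an adjusted p of 0.05 (limma, Benjamini-Hochberg over all genes), 18 higher and 11 lower. That is 32.2% of pairs, where 18.2% were called over all genes. The members called were 3 of 9 with DAC at 5 µM, where 32.2% of all genes were called, and 4 with DAC at 120 nM (22.4%). With G669071 they were 4 at the higher dose (29.5%) and 5 at the lower dose (15.6%). With G668684 they were 2 at 7 µM (32.2%) and 4 at 150 nM (21.1%). With Aza they were 3 at 1500 nM (17.3%) and 1 at 150 nM (1.49%). With G669043 they were 2 at 1500 nM (9.12%) and 1 at 150 nM (0.870%). Between doses 6 of 45 pairs were called (13.3%), where 9.05% were over all genes, and between G669043 and Aza 1 of 18 (5.56%), where 2.13% of genes were called at 1500 nM and 0.0665% at 150 nM. With DAC at 5 µM the members' share was near the background. ANXA5 accounted for 10 of the 29, ANXA2 for 6, ANXA1 for 5, ANXA3 for 4, and ANXA4 and ANXA6 for 2 each.

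**Figure D3:**
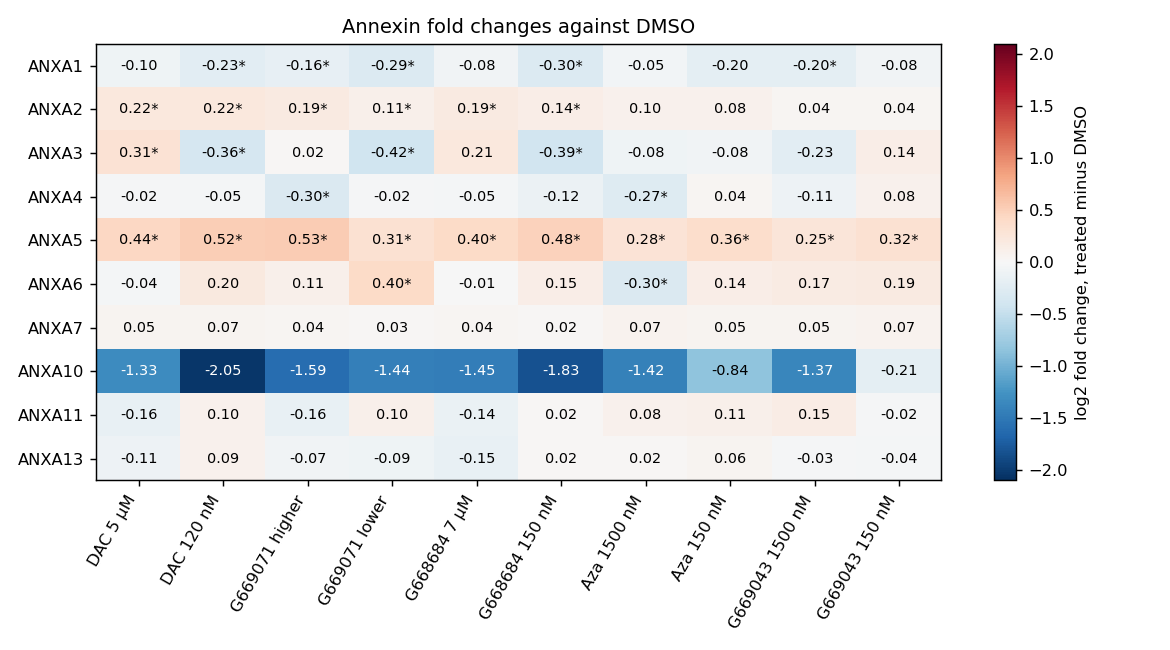
Log2 fold change of each annexin (rows) in each treated group minus DMSO (columns), printed in the cell and coloured from blue (lower) to red (higher); an asterisk marks an adjusted p under 0.05, and ANXA10 was not tested. ANXA10 is negative in all 10 columns (-2.05 to -0.21), ANXA5 is positive and called in all 10 (0.25 to 0.53), and ANXA7, ANXA11 and ANXA13 have no called cell.

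ANXA5, which binds phosphatidylserine and is used as a stain for dying cells, was higher in every treated group. Its log2 level (200782_at) was 12.58 and 12.58 with DAC at 5 µM and 12.56 and 12.76 with DAC at 120 nM, against 12.01, 12.14, 12.28 and 12.14 in DMSO. With G669071 it was 12.67 and 12.68 at the higher dose and 12.48 and 12.43 at the lower dose. With G668684 it was 12.59 and 12.49 at 7 µM and 12.61 and 12.63 at 150 nM. These arrays all lay above all DMSO arrays. With Aza the level was 12.41 and 12.44 at 1500 nM and 12.49 and 12.52 at 150 nM. With G669043 it was 12.42 and 12.36 at 1500 nM and 12.43 and 12.49 at 150 nM. None of the 10 groups overlapped DMSO, a pattern above DMSO shared with 1.59% of genes tested. In single comparisons 9.36% to 21.6% of genes lay wholly above DMSO. The log2 fold change was largest with the higher dose of G669071, at 0.53 ± 0.06 (SE, 2 arrays against 4, adjusted p = 1.05e-06), and smallest with G669043 at 1500 nM, at 0.25 ± 0.06 (adjusted p = 0.0134). ANXA5 was called higher in all 10 comparisons, as were 0.310% of genes. The comparisons share the DMSO arrays. The calls with DAC, G668684 and the higher dose of G669071 passed under all 17 alternatives. A fit of only the groups compared lost those with the lower dose of G669071, both Aza doses and both G669043 doses. Its adjusted p was 0.052 for the lower dose of G669071 and 0.067 for Aza at 1500 nM. The calls with Aza at 150 nM and both G669043 doses also needed both arrays of their group. DMSO replicates 3 and 4 alone lost both G669043 calls. The call with G669043 at 150 nM was lost under 6 of 17 alternatives, among them quantile normalization again and eBayes without trend. No difference of ANXA5 between doses or between G669043 and Aza was called. The largest was the higher minus the lower dose of G669071, at 0.22 ± 0.07 (95% interval 0.07 to 0.37, adjusted p = 0.0595).

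ANXA2, which joins S100A10 in a complex that binds plasminogen at the cell surface, was higher in the 6 groups of DAC, G669071 and G668684. Its log2 level (201590_x_at) was 14.30 and 14.32 with DAC at 5 µM and 14.34 and 14.28 with DAC at 120 nM, against 14.13, 14.10, 14.04 and 14.08 in DMSO. With G669071 it was 14.26 and 14.29 at the higher dose and 14.18 and 14.22 at the lower dose, and with G668684 it was 14.27 and 14.29 at 7 µM and 14.28 and 14.18 at 150 nM. All of these lay above all DMSO arrays, and the spread among DMSO arrays was small (SD 0.0377, n = 4). With Aza the level was 14.19 and 14.18 at 1500 nM and 14.18 and 14.16 at 150 nM, above DMSO but not called. With G669043 it was 14.14 and 14.11 at 1500 nM and 14.10 and 14.15 at 150 nM, which overlapped DMSO. The log2 fold change was 0.22 ± 0.03 with DAC at 5 µM (adjusted p = 3.71e-05), 0.19 ± 0.03 with the higher dose of G669071 (adjusted p = 0.000268) and 0.19 ± 0.03 with G668684 at 7 µM (adjusted p = 0.000181). With the lower dose of G669071 it was 0.11 ± 0.03 (adjusted p = 0.0317). That call was lost under 11 of 17 alternatives, among them DMSO replicates 1 and 2 alone. With G668684 at 150 nM (0.14 ± 0.03, adjusted p = 0.00505) it was lost under 4, among them without replicate 1 of that group (adjusted p up to 0.2 over all 4). With DAC at 120 nM (0.22 ± 0.03, adjusted p = 7.13e-05) it was lost when the probe sets ending in _x_at were left out. No difference between doses or between G669043 and Aza was called for ANXA2.

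All 4 probe sets of ANXA2 had positive log2 fold changes in all 10 comparisons. The probe set 1568126_at read far dimmer than the others, at 6.28 and 6.35 with DAC at 5 µM against 5.69, 5.78, 5.98 and 5.76 in DMSO. It was called in 3 comparisons, with log2 fold changes of 0.51 with DAC at 5 µM (adjusted p = 0.00795 in the fit over probe sets), 0.61 with the higher dose of G669071 (adjusted p = 0.0021) and 0.41 with G668684 at 7 µM (adjusted p = 0.0331). With DAC at 120 nM it was not called (0.21, adjusted p = 0.347). The other 3 end in _x_at, a class that can bind several transcripts, and processed ANXA2 copies have probe sets of their own. ANXA2P2, such a copy, was called higher in 7 comparisons, by 0.33 with DAC at 5 µM, 0.34 with the higher dose of G669071 and 0.40 with G668684 at 7 µM on the log2 scale. Signal from ANXA2 and from its copies cannot be told apart on such probe sets.

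S100A10, the partner of ANXA2, was called higher in 10 of 10 comparisons. Its log2 level was 13.51 and 13.55 with DAC at 5 µM, 13.46 and 13.47 with DAC at 120 nM, and 13.56 and 13.55 with the higher dose of G669071, against 12.59, 12.62, 12.83 and 12.85 in DMSO. The smallest rise was with Aza at 150 nM, at a mean of 12.97, and both arrays still lay above all DMSO arrays. The log2 fold changes of S100A10 were 0.83 ± 0.06 with the higher dose of G669071 (adjusted p = 8.95e-10), 0.81 ± 0.06 with DAC at 5 µM (adjusted p = 1.17e-09) and 0.25 ± 0.06 with Aza at 150 nM (adjusted p = 0.0333). The calls with Aza and with G669043 at 150 nM were each lost in 4 of the fits that left out 1 array. Of 4 other settings (renormalized values or 1 DMSO pair alone), 1 ended the Aza call and 3 the G669043 call.

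ANXA1, a regulator of inflammation whose secreted form acts through formyl peptide receptors, was lower in 5 of 10 groups. Its log2 level (201012_at) was 12.28 and 12.38 with DAC at 120 nM, 12.26 and 12.27 with the lower dose of G669071 and 12.26 and 12.26 with G668684 at 150 nM, against 12.49, 12.46, 12.65 and 12.62 in DMSO. It was 12.37 and 12.41 with the higher dose of G669071 and 12.32 and 12.38 with G669043 at 1500 nM. These 5 groups lay below all DMSO arrays, as did Aza at 150 nM (12.36 and 12.35), which was not called. With DAC at 5 µM (12.42 and 12.50), G668684 at 7 µM (12.42 and 12.53), Aza at 1500 nM (12.50 and 12.50) and G669043 at 150 nM (12.53 and 12.42) the arrays overlapped DMSO. The log2 fold change was -0.30 ± 0.06 with G668684 at 150 nM (adjusted p = 0.000579), -0.29 ± 0.06 with the lower dose of G669071 (adjusted p = 0.00101) and -0.23 ± 0.06 with DAC at 120 nM (adjusted p = 0.00531). With the higher dose of G669071 (adjusted p = 0.0296) and G669043 at 1500 nM (adjusted p = 0.0238) the calls were lost under 9 of 17 alternatives. DMSO replicates 1 and 2, the lower pair for ANXA1, ended both when used alone. The call with DAC at 120 nM was lost without replicate 1 of that group. Both probe sets of ANXA1 had negative log2 fold changes in all 10 comparisons, although 233011_at was called in none.

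Between doses, ANXA1 was higher at 7 µM than at 150 nM of G668684, by 0.22 ± 0.06 on the log2 scale (adjusted p = 0.0337), where 11.6% of all genes were called. That call was lost under 8 of 15 alternatives. S100A11, a partner of ANXA1, was called higher in 8 of 10 comparisons. Its log2 level was 11.34 and 11.23 with the higher dose of G669071 and 11.17 and 11.33 with DAC at 120 nM, against 10.22, 10.09, 10.45 and 10.43 in DMSO. The log2 fold changes there were 0.99 ± 0.08 (adjusted p = 1.29e-08) and 0.95 ± 0.08 (adjusted p = 4.58e-08). ANXA1 itself was lower in both of those groups. Of the ANXA1 receptors FPR1, FPR2 and FPR3, 1 of 30 pairs was called lower (3.33%, against 8.28% of all genes) and 0% higher, against 9.88%. It was FPR2 with G668684 at 7 µM, at -0.42 on the log2 scale (adjusted p = 0.017), a call lost in 1 of the fits that left out 1 array. Their mean log2 values in DMSO were 6.44, 6.39 and 6.66, near the array medians (6.46 to 6.58), and no detection calls are available.

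ANXA3, a phospholipid-binding annexin abundant in neutrophils, was higher at the higher than at the lower dose of DAC, G669071 and G668684. Its log2 level (209369_at) was 12.33 and 12.43 with DAC at 5 µM and 11.51 and 11.92 with DAC at 120 nM, against 11.92, 12.03, 12.26 and 12.09 in DMSO. With G669071 it was 12.10 and 12.09 at the higher dose and 11.78 and 11.53 at the lower dose, and with G668684 it was 12.32 and 12.26 at 7 µM and 11.60 and 11.76 at 150 nM. In each of these 3 compounds both arrays of the higher dose lay above both of the lower dose. With Aza it was 12.03 and 11.95 at 1500 nM and 11.96 and 12.04 at 150 nM, and with G669043 it was 11.85 and 11.85 at 1500 nM and 12.21 and 12.22 at 150 nM. The Aza doses overlapped, and for G669043 the higher dose lay below the lower dose.

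The higher minus the lower dose of DAC gave a log2 difference in ANXA3 of 0.67 ± 0.11 (SE, 2 arrays each, adjusted p = 0.000314, with 14.7% of genes called). For G668684 it was 0.61 ± 0.11 (adjusted p = 0.000873) and for G669071 0.44 ± 0.11 (adjusted p = 0.0144, with 9.35% of genes called). For Aza it was -0.01 ± 0.11 (95% interval -0.24 to 0.22, with 5.79% of genes called). For G669043 it was -0.37 ± 0.11, which did not pass (adjusted p = 0.0768, with 3.87% of genes called). The difference between the dose effects of G669043 and Aza was -0.36 ± 0.16 and was not called either (adjusted p = 0.45). The calls for DAC and G668684 passed under all 15 alternatives run, and that for G669071 was lost in 3 of the 4 fits that left out 1 treated array. Against DMSO, ANXA3 was higher with DAC at 5 µM (0.31 ± 0.10, adjusted p = 0.0185). It was lower with the lower dose of G669071 (-0.42 ± 0.10, adjusted p = 0.00437), G668684 at 150 nM (-0.39 ± 0.10, adjusted p = 0.00502) and DAC at 120 nM (-0.36 ± 0.10, adjusted p = 0.0092). The rise with DAC at 5 µM was lost against DMSO replicates 3 and 4 alone (0.21, adjusted p = 0.14), and the fall with DAC at 120 nM against replicates 1 and 2 alone (-0.26, adjusted p = 0.061). Each of these 4 calls was also lost without 1 of the treated arrays.

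**Figure D4:**
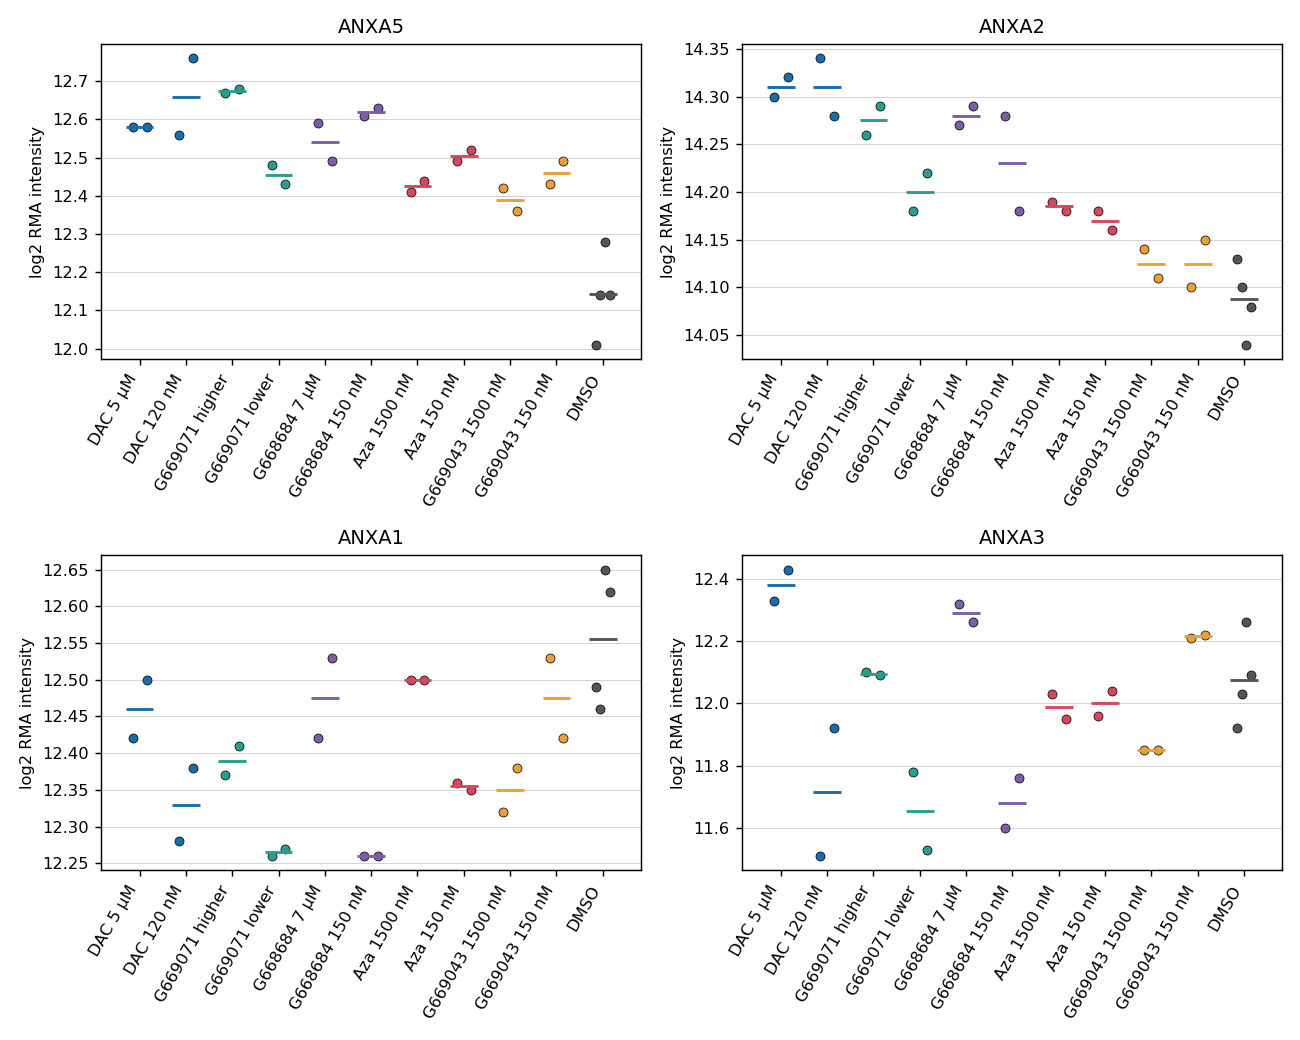
Log2 RMA intensity (vertical axis, each panel with its own scale) of ANXA5, ANXA2, ANXA1 and ANXA3 on each array, with treated groups on the left and DMSO on the right; points are arrays and bars are group means. Every treated array of ANXA5 (12.36 to 12.76) lies above DMSO (12.01 to 12.28), and ANXA3 is higher at the higher than at the lower dose of DAC, G669071 and G668684.

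ANXA4, an annexin of epithelial membranes, was lower in 2 groups. Its log2 level (201301_s_at) was 9.91 and 9.98 with the higher dose of G669071 and 10.01 and 9.94 with Aza at 1500 nM, against 10.08, 10.18, 10.43 and 10.28 in DMSO. Both groups lay below all DMSO arrays, and the other 8 overlapped DMSO. The log2 fold changes were -0.30 ± 0.08 (adjusted p = 0.00459) and -0.27 ± 0.08 (adjusted p = 0.0177). The first was lost under 2 of 17 alternatives, without replicate 1 of the G669071 group and with only the groups compared. The second was lost under 7, among them DMSO replicates 1 and 2 alone (-0.15, adjusted p = 0.13) and the fits without either Aza array. Aza at 1500 minus 150 nM gave -0.30 ± 0.09 (adjusted p = 0.0445), which no fit without 1 of the 4 Aza arrays called. The second probe set of ANXA4, 201302_at, was called lower with the higher dose of G669071 (-0.47), DAC at 120 nM (-0.32) and G668684 at 150 nM (-0.31), and not with Aza.

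ANXA6, an annexin of late endosomes and cholesterol-rich membrane, rose with the lower dose of G669071 and fell with Aza at 1500 nM. Its log2 level (200982_s_at) was 9.31 and 9.39 in the G669071 group and 8.75 and 8.54 in the Aza group, against 8.85, 9.11, 8.98 and 8.85 in DMSO. Neither group overlapped DMSO, and the other 8 did, with 8.83 to 9.23 over their arrays. The log2 fold changes were 0.40 ± 0.09 (adjusted p = 0.00406) and -0.30 ± 0.09 (adjusted p = 0.0255). The first call was lost without replicate 2 of its group, and the second without replicate 2 of Aza or of DMSO. At the matched dose of 1500 nM, ANXA6 was higher with G669043 (9.01 and 9.23) than with Aza (8.75 and 8.54), by 0.47 ± 0.11 on the log2 scale (adjusted p = 0.0221). It was the 1 of 18 pairs called between these compounds. At 150 nM the ANXA6 difference was 0.05 ± 0.11 (95% interval -0.17 to 0.27). Aza at 1500 minus 150 nM gave -0.44 ± 0.11 (adjusted p = 0.0158), a call lost in 3 of the 4 fits that left out 1 Aza array. The G669043 minus Aza call was lost without replicate 2 of either group. The difference between the dose effects of the compounds was 0.42 ± 0.15 and was not called (adjusted p = 0.282). Of the 9 members 0 were called in that interaction by limma, 3 had an unadjusted p under 0.05, and 0.449% of genes were called.

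The calls of ANXA6 rest on 1 probe set. The other, 244250_at, read 6.36 and 6.51 with the lower dose of G669071 against 6.75, 6.47, 6.40 and 6.39 in DMSO, and was called in none of the 10 comparisons. On that probe set the log2 fold change was -0.07 with the lower dose of G669071, and G669043 minus Aza at 1500 nM was -0.15, so both had the opposite sign.

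ANXA7, known for its part in membrane fusion during secretion, ANXA11, which tethers RNA granules to lysosomes, and ANXA13, an annexin of intestinal and renal epithelium, were called in none of the 10 comparisons. ANXA7 (209860_s_at) had the narrowest span of group means in the family, at 0.07. Its log2 level lay between 11.95 and 12.07 on treated arrays and between 11.88 and 12.03 in DMSO, and every log2 fold change lay between 0.02 and 0.07. The second probe set of ANXA7, 201366_at, separated the DMSO pairs, at 10.43 and 10.58 in replicates 1 and 2 and at 11.15 and 11.10 in replicates 3 and 4. Its treated arrays lay between 10.48 and 11.08. ANXA11 (206200_s_at) had log2 fold changes between -0.16 and 0.15, with the lowest adjusted p at 0.127. A second ANXA11 probe set, 214783_s_at, was called lower with the higher dose of G669071 (-0.35, adjusted p = 0.000464 in the fit over probe sets). ANXA13 read 5.45 to 5.89 on treated arrays and 5.65 to 5.79 in DMSO. No detection calls come with the values, so whether ANXA13 lay above background is unknown.

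**Figure D5:**
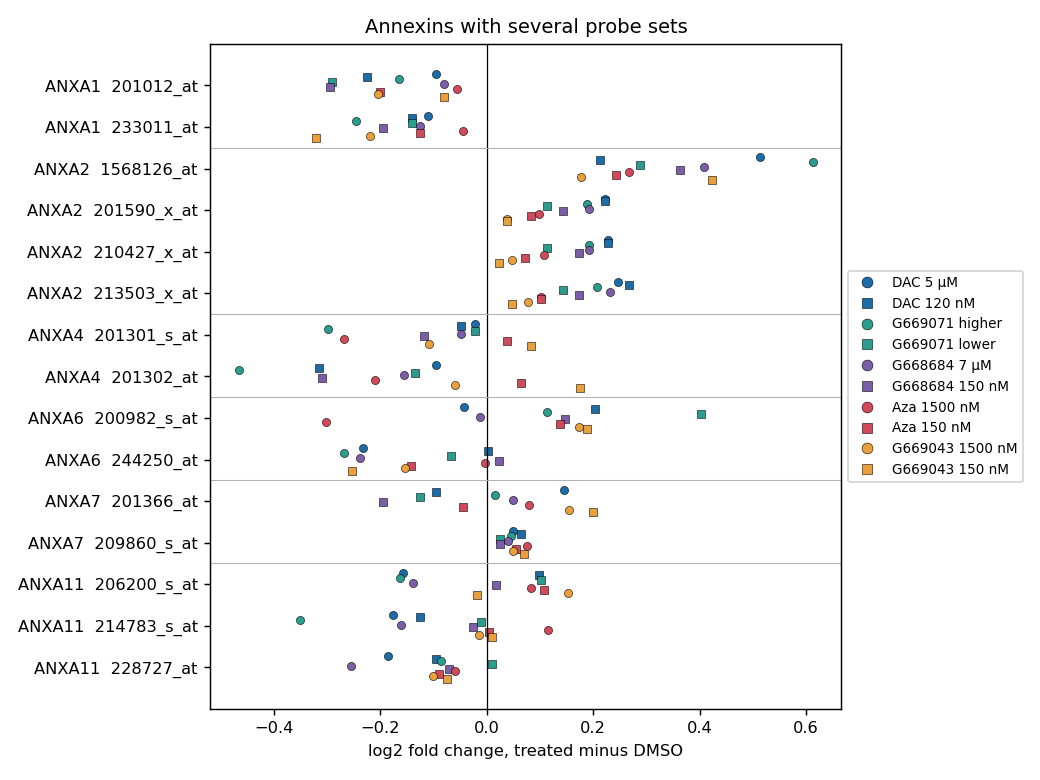
Log2 fold change against DMSO (horizontal axis) of every probe set of the 6 annexins with more than 1, with a point per treated group. All points of ANXA1 lie below 0 and all of ANXA2 above 0, while the probe sets of ANXA6 and ANXA11 fall on both sides of 0.

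Genes that act with annexins were read from lists. Of the partner list, 12 of 14 genes were tested, and 30 of 120 pairs were called higher and 10 lower, where 9.88% and 8.28% were over all genes. Besides S100A10 and S100A11, S100A6 was called higher in 8 comparisons, by at most 0.47. S100A4 was called lower in 5 and fell most with Aza at 1500 nM, where it read 9.61 and 9.38, against 11.16, 11.32, 11.33 and 11.31 in DMSO, a log2 fold change of -1.79 (adjusted p = 1.2e-12). The list's median log2 fold change lay between -0.06 and 0.09 in the 10 comparisons, so the calls were carried by few genes.

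The plasminogen list held PLG, the gene of the plasminogen that the ANXA2 complex binds, and other genes of that system. Of its 10 genes 8 were tested, with 21 of 80 pairs called higher (26.2%, against 9.88% of all genes) and 15 lower (18.8%, against 8.28%). PLG itself was called in 0 of 10 comparisons, and SERPINE2 was called higher in 8. PLAT, the tissue-type activator, read 8.49 and 8.83 with DAC at 5 µM and 8.58 and 8.72 with G668684 at 7 µM, against 7.04, 6.98, 7.26 and 7.30 in DMSO. Its log2 fold changes were 1.51 ± 0.12 (adjusted p = 3.5e-09) and 1.5 ± 0.12 (adjusted p = 4e-09), and it was called higher in 8 comparisons. PLAU, the urokinase-type activator, went the other way and was called lower in 8. It read 7.90 and 7.92 with G668684 at 150 nM and 7.92 and 8.0 with DAC at 120 nM, against 8.90, 8.93, 8.77 and 8.70 in DMSO, with log2 fold changes of -0.91 ± 0.09 (adjusted p = 3.92e-07) and -0.86 ± 0.09 (adjusted p = 7.02e-07). PLAUR, the urokinase receptor, was called higher in 5 comparisons.

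Of the membrane repair list, 23 of 26 genes were tested, with 48 of 230 pairs called higher (20.9%, against 9.88% of all genes) and 13 lower (5.65%, against 8.28%). Its median log2 fold change was 0.21 with DAC at 5 µM, where the median of all genes was -0.04. SNAP23, a membrane fusion protein, was 1.06 ± 0.18 higher there on the log2 scale (adjusted p = 7.76e-05). CAPNS1, the small calpain subunit, was called higher in 7 comparisons, and CAVIN1, a caveolar coat protein, in 7. CAV1, the caveolar scaffold, was called lower in 3 and higher in 1. The copines, another family of calcium-dependent phospholipid binders, had 3 of 80 pairs called higher (3.75%, below the share of all genes) and 8 lower (10%, near it), with CPNE3 lower in 6.

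ANXA10 is best known from gastric and serrated epithelium, so markers of both tissues were read. Of the gastric and serrated lesion markers all 15 were tested. There 3 of 150 pairs were called, all of them S100P higher (2%, against 9.88% of all genes), and 0% were called lower, against 8.28%. In DMSO these markers had mean log2 values from 5.43 (GKN1) to 7.995 (MUC5AC), where array medians over all probe sets were 6.46 to 6.58. Without detection calls, whether they lay above background is unknown. TFF1, TFF2, MUC5AC, MUC6, GKN1, GKN2 and AGR2 were called in none of the 10 comparisons. Of the intestinal epithelium list 17 of 21 genes were tested, with 16 of 170 pairs called higher (9.41%) and 8 lower (4.71%), at or under the shares of all genes. KRT20, a keratin of differentiated colonic epithelium, was called higher in 8 comparisons. It read 9.55 and 9.56 with the higher dose of G669071, against 5.97, 5.75, 5.85 and 5.91 in DMSO. CA2, a carbonic anhydrase, was called lower in 7 and higher in 1. Whether these changes are linked to that of ANXA10 was not tested.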

How the data were processed

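RNA of HCT116 cells was measured on 24 Affymetrix HG-U133 Plus 2.0 arrays. According to the submitters' processing notes, the authors made RMA values in Affymetrix Expression Console 1.1, which were deposited as linear intensity. The log2 of these deposited intensity values was taken here. Array medians lay between 6.46 and 6.58 log2. Probe sets that reached log2 5 on at least 2 arrays were kept, and the brightest kept probe set on average stood for its gene. Of the probe sets named by the platform annotation, 41091 carried 1 gene symbol and 1801 several, and another 11721 were absent from it. No genome build is given for the probe sets in the sources used here.

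A linear model with 1 mean for each group was fitted to the 24 arrays in limma 3.58.1 under R 4.3.3, with eBayes moderation that follows intensity and 13 residual degrees of freedom. Tests were 2-sided, with Benjamini-Hochberg adjustment over 18055 genes in each comparison and a threshold of 0.05. The 18 comparisons were 10 with DMSO, 5 between doses, 2 of G669043 with Aza and 1 interaction. The fit was tested on simulated data. Each probe set of a member was also fitted by itself, over all kept probe sets. Members and gene lists were chosen with earlier results of these data known. All members are named. The rule for lists takes called genes with the largest log2 fold changes, up to 4 a comparison. The text names part of that pool, and this part and any list genes outside it were chosen after their values were seen. Alternatives changed the probe set, filter, normalization, variance model, control arrays and arrays left out. The main fit did not pair samples by replicate number. Over 45 pairs of treated groups, replicate 1 minus replicate 2 correlated between -0.393 and 0.612, with a median of 0.0159. Of these correlations 17 were over 0.1 and 20 below 0, so whether some groups shared a replicate structure is not settled. Promoters came from RefSeq. Tables of promoters used pandas 2.3.3 in Python 3.11.15, and plots used matplotlib 3.10.9.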

Additional observations from a re-analysis of the deposited data

Results flagged for a closer look

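For 7 results the difference between doses or between compounds was itself tested and passed. ANXA3 was higher at the higher than at the lower dose of DAC by 0.67 on the log2 scale (adjusted p = 0.00031), of G668684 by 0.61 (adjusted p = 0.00087) and of G669071 by 0.44 (adjusted p = 0.014). ANXA1 was higher at 7 µM than at 150 nM of G668684 by 0.22 (adjusted p = 0.034). For Aza at 1500 minus 150 nM, the log2 difference was -0.44 in ANXA6 (adjusted p = 0.016) and -0.30 in ANXA4 (adjusted p = 0.045). ANXA6 was higher with G669043 than with Aza at 1500 nM by 0.47 (adjusted p = 0.022). The ANXA6 call for Aza was lost in 3 of 4 fits without 1 Aza array, the ANXA4 call in all 4, and the ANXA1, ANXA6 compound and G669071 ANXA3 calls in 2 or 3 of 4. All adjusted p-values are from limma with 2 arrays in each group. The flagged results held no DMSO array, but the DMSO arrays were not alike on every probe set of the members. On 201366_at of ANXA7, DMSO replicates 1 and 2 read 10.43 and 10.58, against 11.15 and 11.10 in replicates 3 and 4. On 244250_at of ANXA6, DMSO replicate 1 read 6.75, against 6.47, 6.40 and 6.39 in the others.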

How the results depend on the processing

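Every treated group kept both ANXA10 arrays below DMSO in all alternatives run for it (10 of 10 groups), and no ANXA10 fold change changed sign; the value with G669043 at 150 nM was -0.35 after quantile normalization again. The count of called pairs against DMSO (29) was 14 when each fit held only the groups compared and 26 to 31 with 1 array left out. Between doses (6) it was 11 with DMSO replicates 1 and 2 alone, 11 with replicates 3 and 4 alone, 12 with only the groups compared and 4 to 10 with 1 array left out. With the replicate number as a block it was 11. Between G669043 and Aza (1) it was 0 with the mean of all probe sets and 0 without _x_at and _s_at probe sets, 2 after quantile normalization again and 2 with only the groups compared, and 0 to 1 with 1 array left out, with 0 when replicate 2 of either group at 1500 nM was dropped. The interaction (0) gave 2 with only the groups compared and 0 to 0 with 1 array left out. Over the gene lists (176) the count was 273 with the replicate block, 102 with only the groups compared and 153 to 194 with 1 array left out. Without _x_at and _s_at probe sets ANXA6 changed sign, to -0.07 with the lower dose of G669071, 0.14 for Aza at 1500 minus 150 nM and -0.15 for G669043 minus Aza at 1500 nM, since another probe set then stands for the gene. The cause of the other shifts was not tested. Of 36 called pairs of a member and a comparison, 12 passed under all alternatives run, and 21 were lost when some 1 array was left out. Few arrays limit the precision: the 95% interval reached a median of 0.207 log2 units to either side against DMSO and 0.239 between treated groups.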
